A study of Mus musculus with 6 samples.

Results

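Hedgehog reception in mouse fibroblasts was described through 9 genes of the 18193 named genes on the array: Scube2, a secreted factor that aids the release of lipid-bearing Hedgehog ligands from the cells that make them, the co-receptors Boc, Cdon and Gas1, the receptor Ptch1, the signal transducer Smo, and the transcription factors Gli1, Gli2 and Gli3. The last 8 were taken for their place in the pathway, and Scube2 was selected on its measured difference between Delta9 and WT, so that difference is given as a description without a test. The 9 genes have 21 probe sets annotated to them alone, and each gene is represented by the probe set of highest mean over the 6 arrays.

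Delta9 samples (n = 3) were primary fibroblasts that carried a Lmna allele named Delta9 (Lmna encodes lamins A and C), and WT samples (n = 3) were wild-type fibroblasts from siblings. All 6 were lines of strain C57bl6X129S3/J at passage 3, kept without serum for 72 hours before total RNA was taken. The cells are adult per the labels but post-natal per the design text, and neither source gives zygosity, sex or the number of animals. The p-values therefore rest on the spread among 6 samples, which may in part be technical.

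A Hedgehog ligand binds Ptch1 together with a co-receptor, which frees Smo from inhibition by Ptch1. Active Smo gathers in the primary cilium, and the Gli factors are then switched from repressors to activators of transcription. Gli2 acts mainly as an activator and Gli3 mainly as a repressor, while Gli1 and Ptch1 are themselves target genes whose RNA is widely used as a readout of the pathway. Many cultured fibroblasts grow a primary cilium when serum is withdrawn.

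Values are log2 expression as deposited, with no detection calls, and the arrays' medians over all probe sets lay between 3.36 and 3.43. The arrays were uneven in a few respects that touch the genes below. Poly-A control transcripts, which are added to the RNA before labelling, gave the lowest mean signal on Delta9 replicate 3 (4.87) and WT replicate 1 (4.55), against 5.25 to 5.67 on the other 4 arrays. Values within each side of this split are therefore given beside the pooled ones. WT replicate 3 also stood apart, with the largest 3′ minus 5′ signal of the Actb control probe sets (1.41, against 0.51 to 0.86 on the other 5 arrays) and the lowest 18S rRNA signal (7.86, against 9.21 to 10.4). The 11 fibroblast markers read between 6.0 and 13.3, and all 11 averaged lower in Delta9 (median difference -0.24, 0 past the threshold in limma and 2 lower at an unadjusted p under 0.05). All 20 macrophage markers averaged higher in Delta9 (median difference 1.06, 0 past the threshold in limma and 4 higher at an unadjusted p under 0.05), and their mean was 9.43 to 10.1 in Delta9 and 7.42 to 9.6 in WT. The groups did not overlap for 7 of the 20, higher in Delta9, against 7.27% of all genes. They did not overlap for 1 of the 11 fibroblast markers, lower, against 9.99%. Over all genes 53.2% averaged lower in Delta9. At an unadjusted p under 0.05 in limma, 6.06% of all genes were lower and 4.54% higher. None of these macrophage markers was near the bottom of the scale except Itgam in WT replicate 3, at 2.81. The cultures held RNA of macrophage genes beside that of fibroblast genes, and in such bulk samples fewer cells of a type and less RNA per cell cannot be told apart. Markers of other cell types were dimmer: values ran from 2.11 to 6.56 for 6 keratinocyte markers (median difference -0.15), 2.77 to 5.74 for 6 endothelial markers (0.18), 2.05 to 7.32 for 5 muscle precursor markers (0.03) and 4.44 to 7.69 for 3 Schwann cell markers (0.13). No marker of these 4 lists passed in limma, and at an unadjusted p under 0.05 there were 1 keratinocyte and 1 muscle precursor marker, both lower. The targeted gene Lmna has 5 probe sets. The 3 bright ones were lower in Delta9 without overlap, by -3.42 (1457670_s_at), -2.05 (1425472_a_at) and -1.96 (1421654_a_at); the dim 1426868_x_at and 1452212_at differed by -0.54 and 0.22, the second with overlap. On 1421654_a_at the levels averaged 6.71 ± 0.52 in Delta9 and 8.67 ± 0.28 in WT (SD, n = 3 each). The position of these probe sets against the Delta9 change was not looked up, so they may not check the labels.

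Scube2 was lower in every Delta9 sample. Its probe set 1453486_a_at read 4.44, 4.63 and 4.78 in Delta9, against 7.17, 7.65 and 7.95 in WT. The groups were far apart, with a gap between them wider than the whole range within either group (0.34 in Delta9 and 0.78 in WT). Means were 4.61 ± 0.17 in Delta9 and 7.59 ± 0.39 in WT (SD, n = 3 each), a difference of -2.98 log2 (SE 0.22), or a 7.86-fold lower level. Scube2 has a single probe set here, so no second measurement of the gene was available. Between Delta9 replicate 3 and WT replicate 1, the arrays of low poly-A signal, it differed by -2.39, and within the other 4 arrays by -3.27 (SE 0.17). With the macrophage marker mean added to the model as a covariate, the difference was -2.67 (SE 0.22).

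The other SCUBE genes, which encode secreted proteins of the same domain layout, had smaller differences. Scube1 read 4.42, 4.48 and 4.43 in Delta9 and 4.41, 4.64 and 4.53 in WT, a difference of -0.08 (95% interval -0.37 to 0.21). Scube3 was dim, at 2.73, 2.92 and 2.87 in Delta9 and 2.72, 2.79 and 2.67 in WT, with a difference of 0.12 (95% interval -0.09 to 0.33). Neither passed in limma (adjusted p 0.854 for Scube1 and 0.671 for Scube3).

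Promoters of 7 of the 9 genes were found in RefSeq sequence of build GRCm38.p6, covering 250 bases before to 50 bases after the annotated start. None was available for Boc and Gli1, so their promoters were not searched. Shown are those of Scube2, which had the largest difference of the 9, of the co-receptor Gas1, which had the widest spread, and of Ptch1, the other gene whose groups did not overlap. They lie at chr7:109865630-109865929 (Scube2), chr13:60177486-60177785 (Gas1) and chr13:63565686-63565985 (Ptch1), all on the minus strand. Capitals mark GC boxes, the letters GGGCGG on either strand, overlapping matches included.
Scube2: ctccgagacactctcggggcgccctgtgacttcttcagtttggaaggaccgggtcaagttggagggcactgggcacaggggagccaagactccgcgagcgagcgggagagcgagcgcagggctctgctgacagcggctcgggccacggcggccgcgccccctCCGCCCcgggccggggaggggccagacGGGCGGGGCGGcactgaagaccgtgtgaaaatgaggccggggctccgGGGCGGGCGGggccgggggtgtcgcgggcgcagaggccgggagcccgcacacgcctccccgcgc
Gas1: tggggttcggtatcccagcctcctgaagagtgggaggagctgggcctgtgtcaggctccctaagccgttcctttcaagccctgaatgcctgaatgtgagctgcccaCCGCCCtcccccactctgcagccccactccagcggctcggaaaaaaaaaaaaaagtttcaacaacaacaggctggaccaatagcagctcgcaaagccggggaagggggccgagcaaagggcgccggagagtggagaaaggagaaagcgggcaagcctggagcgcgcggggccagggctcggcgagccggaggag
Ptch1: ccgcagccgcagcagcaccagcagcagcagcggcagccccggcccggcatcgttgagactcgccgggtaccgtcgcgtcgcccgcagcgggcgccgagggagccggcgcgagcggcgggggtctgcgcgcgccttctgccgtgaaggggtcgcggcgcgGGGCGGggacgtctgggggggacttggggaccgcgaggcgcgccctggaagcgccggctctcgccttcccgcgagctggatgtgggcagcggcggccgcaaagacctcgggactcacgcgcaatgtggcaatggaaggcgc
Scube2 had 5 such matches, which start 88, 61, 56, 14 and 10 bases before the annotated start; Gas1 and Ptch1 had 1 each. A GC box was found in 5 of the 7 promoters and in 35.7% of all 32851 promoters in the table. The Gli motif GACCACCCA, searched on both strands, was in 0 of the 7 and in 0.253% of all promoters. The TATA box TATAAA was in 0 of the 7 (13.6% of all), and the TCF/LEF motif CTTTGNT was in 2 of the 7, Smo and Gas1 (18.6% of all). Scube2 and Ptch1 were rich in G and C, at 75.3% and 76.3%, with 62.3% in Gas1 and a median of 52.7% over all promoters. A missing match says only that these letters are not in this window.

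**Figure D1:**
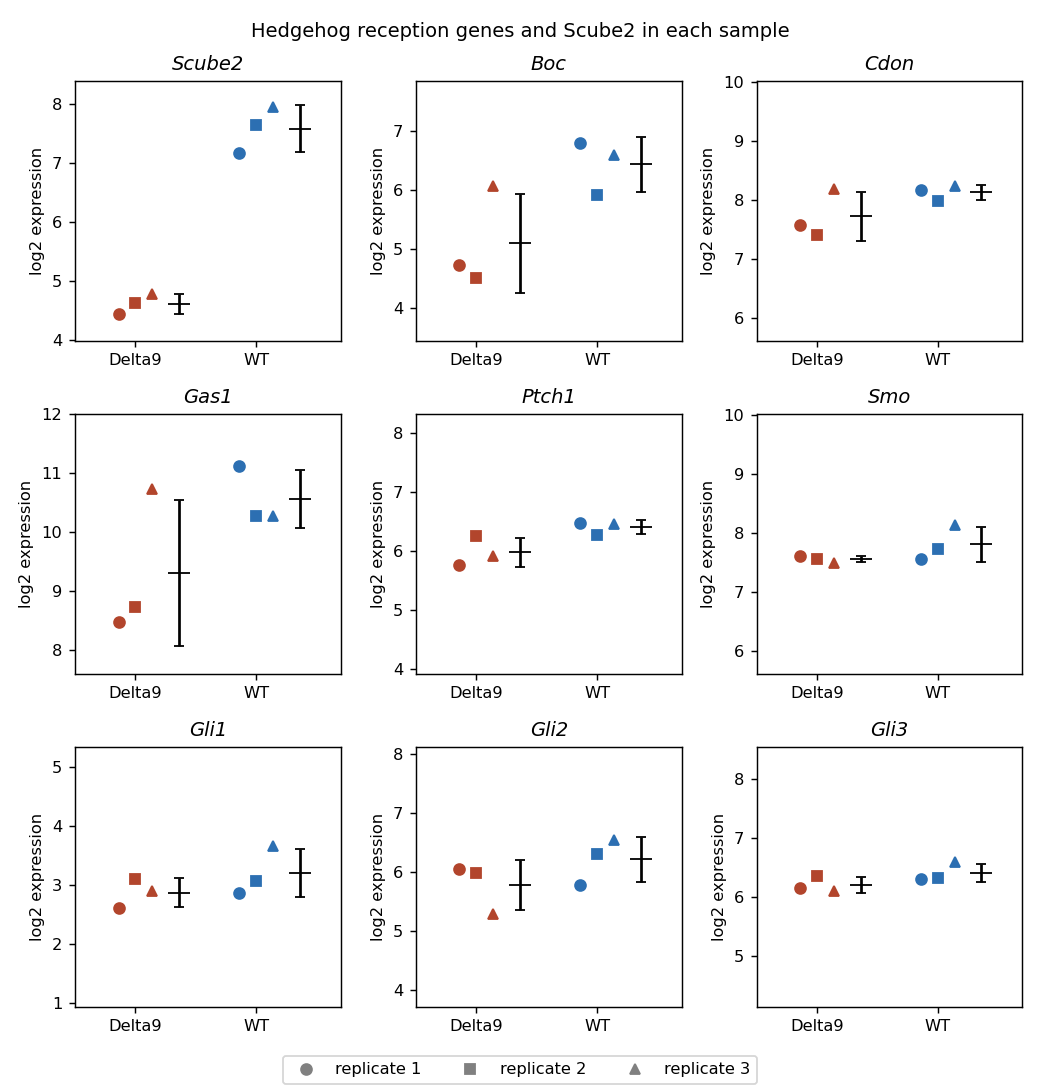
Log2 expression (vertical axes, all spanning 4.4 log2 units) of the 9 genes in the 3 Delta9 and 3 WT samples, with markers for the replicate number and black bars for the mean ± SD of each group. Scube2 shows a clear gap between the groups, and Boc, Cdon and Gas1 are low in Delta9 replicates 1 and 2 but not in Delta9 replicate 3.

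The co-receptors Boc, Cdon and Gas1 shared an uneven pattern: low in Delta9 replicates 1 and 2, and within the WT range in Delta9 replicate 3. Boc, an immunoglobulin-family membrane protein that binds Hedgehog ligands, read 4.72, 4.50 and 6.06 in Delta9, against 6.79, 5.91 and 6.59 in WT. Delta9 replicate 3 exceeded WT replicate 2, so the groups overlapped. Boc differed by -1.34 (SE 0.43, 95% interval -2.36 to -0.32, not adjusted for the number of genes), or 2.53-fold lower, and did not pass in limma over all genes (adjusted p 0.368). Its second probe set, 1427516_a_at, read 4.86, 4.84 and 5.40 in Delta9 and 6.04, 5.67 and 6.01 in WT. On that probe set the groups did not overlap and the difference was -0.87 (SE 0.21). The third, 1427517_at, lay between 2.11 and 2.40 on all 6 arrays, with a difference of 0.08 (SE 0.10).

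Gas1, a membrane-anchored co-receptor first known as a gene induced by growth arrest, had the widest spread of the 9 genes. It read 8.48, 8.73 and 10.7 in Delta9, against 11.1, 10.3 and 10.3 in WT. Delta9 replicate 3 lay inside the WT range, 2.26 above the lowest Delta9 sample. The difference of -1.25 (SE 0.58, 95% interval -2.62 to 0.12) did not pass (limma, adjusted p 0.500). The probe set 1448494_at gave the same order of the Delta9 samples, at 6.24, 6.54 and 8.34, with 9.08, 8.08 and 7.43 in WT and a difference of -1.15 (SE 0.61). The dimmer 1456322_at differed by -0.19 (SE 0.25).

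Cdon, a close relative of Boc with the same role, varied less. It read 7.58, 7.40 and 8.19 in Delta9, against 8.17, 7.98 and 8.23 in WT, a difference of -0.40 (SE 0.22, 95% interval -0.92 to 0.12; limma, adjusted p 0.561). Delta9 replicate 3 again lay within the WT range. The dim probe set 1421452_at differed by -0.18 (SE 0.15).

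The co-receptors' differences had another size on each side of the poly-A split, which was not tested as such. Within the 4 arrays of higher signal, Gas1 differed by -1.68 (SE 0.11) and passed in limma (adjusted p 0.0146), where 0.335% of all genes passed. The 3′ minus 5′ signal of the Gapdh control probe sets, a measure of RNA quality, was 0.25 and 0.23 on the Delta9 arrays among these 4 and 0.49 and 0.51 on the WT arrays, so this measure and genotype cannot be told apart there. Boc differed there by -1.64 (SE 0.25, adjusted p 0.0926 in limma) and Cdon by -0.62 (adjusted p 0.156 in limma). On the remaining arrays, Delta9 replicate 3 minus WT replicate 1 gave -0.39 for Gas1, -0.73 for Boc and 0.03 for Cdon, with no test possible; the Gapdh measure was 0.57 on both. Without Delta9 replicate 3, Gas1 differed by -1.96 (limma, adjusted p 0.0510), Boc by -1.82 (0.0589) and Cdon by -0.64 (0.165). With the split as a block, none of the 3 passed in limma (adjusted p 0.0760 for Gas1, 0.0684 for Boc and 0.260 for Cdon), where 0.819% of all genes passed. The 11 fibroblast markers were divided on Delta9 replicate 3: 5 of them (Col3a1, Pdgfra, Dcn, Lum and S100a4) were higher there than in both other Delta9 samples, as the co-receptors were, and 6 (Col1a1, Col1a2, Pdgfrb, Thy1, Vim and Fap) were lower there than in both. Lum, a matrix proteoglycan, read 6.75, 6.0 and 8.25 in Delta9 and 8.21, 7.96 and 8.04 in WT, whereas the surface protein Thy1 read 10.67, 10.13 and 9.24 in Delta9 and 9.42, 10.61 and 10.6 in WT. The part of these markers in the result was not tested. With the macrophage covariate the differences were -1.90 for Gas1 (SE 0.69), -1.58 for Boc (SE 0.57) and -0.47 for Cdon (SE 0.29). The SEs were wider than without it, and none passed in limma (adjusted p 0.530, 0.530 and 0.604).

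**Figure D2:**
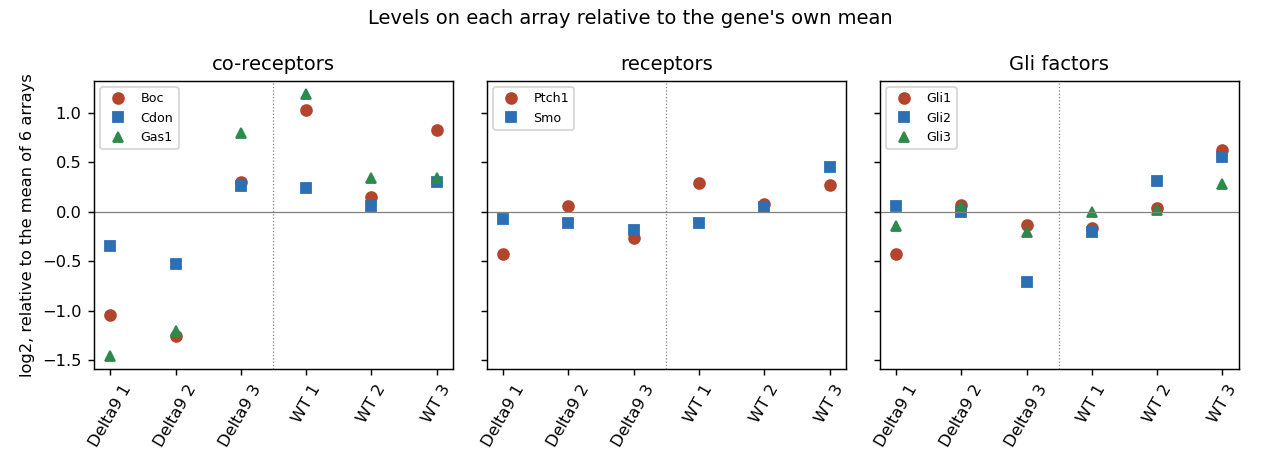
Log2 expression on each array relative to the gene's own mean over the 6 arrays (vertical axis), for the co-receptors, the receptors and the Gli factors; a dotted line parts the Delta9 from the WT arrays. Boc, Cdon and Gas1 lie below 0 on Delta9 replicates 1 and 2 and above 0 on the other 4 arrays, whereas Smo, Gli1, Gli2 and Gli3 are highest on WT replicate 3.

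The receptor Ptch1, which both binds the ligand and is a target gene of the pathway, read 5.76, 6.25 and 5.92 in Delta9 and 6.48, 6.27 and 6.46 in WT. The groups did not overlap, though Delta9 replicate 2 and WT replicate 2 differed by little. The difference was -0.43 (SE 0.17, 95% interval -0.83 to -0.03), or 1.35-fold lower, and did not pass (limma, adjusted p 0.443). Its dim probe sets 1450824_at and 1439663_at differed by -0.01 (SE 0.17) and -0.07 (SE 0.16). Ptch1 kept a similar size on both sides of the poly-A split, at -0.57 between the arrays of low signal and -0.36 within the other 4.

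Smo, the membrane protein that passes the signal on, was the steadiest of the 9 in Delta9. It read 7.61, 7.57 and 7.50 in Delta9 and 7.57, 7.73 and 8.14 in WT. The Delta9 values spanned 0.11, and WT replicate 3 stood above the rest. The difference of -0.26 (SE 0.17, 95% interval -0.66 to 0.15; limma, adjusted p 0.639) was 0.02 with the macrophage covariate. It was -0.09 once WT replicate 3 was left out. Within the 4 arrays of higher poly-A signal it was -0.35, and between the arrays of low signal -0.07. Probe set 1427048_at gave -0.14 (SE 0.18) and the dim 1442215_at gave -0.11 (SE 0.07).

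The Gli factors overlapped between the groups. Gli1 was dim, at 2.61, 3.10 and 2.90 in Delta9 and 2.87, 3.07 and 3.66 in WT, at the 27.6th percentile of mean level among the genes. With no detection calls, these values cannot be told from background. The difference was -0.33 (95% interval -0.85 to 0.19; limma, adjusted p 0.634). Gli2 read 6.04, 5.98 and 5.28 in Delta9, against 5.78, 6.30 and 6.54 in WT. Its lowest values were on Delta9 replicate 3 and WT replicate 1, the arrays of low poly-A signal, and its difference was -0.44 (95% interval -1.09 to 0.21; limma, adjusted p 0.613). The second Gli2 probe set, 1446086_s_at, gave a smaller difference of -0.15 (SE 0.20), also with overlap. Gli3 read 6.15, 6.35 and 6.09 in Delta9 and 6.30, 6.32 and 6.58 in WT, a difference of -0.20 (95% interval -0.56 to 0.15; limma, adjusted p 0.667). Its second bright probe set, 1456067_at, gave -0.23 (SE 0.16), with no overlap between the groups. Without WT replicate 3 the differences were -0.10 for Gli1, -0.27 for Gli2 and -0.11 for Gli3. Without Delta9 replicate 3 that of Gli2 was -0.20, and without Delta9 replicate 1 that of Gli1 was -0.20. The macrophage covariate left Gli1 at 0.05, Gli2 at -0.01 and Gli3 at -0.04. Between the arrays of low poly-A signal Gli1 differed by 0.02, Gli2 by -0.51 and Gli3 by -0.21, and within the other 4 by -0.51, -0.41 and -0.20 in the same order of genes.

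As a list, all 9 genes averaged lower in Delta9, with a median difference of -0.43, against 53.2% of all genes lower and a median of -0.01. Of the 8 genes other than Scube2, 0 passed in limma at an adjusted p of 0.05 over all genes, where 0.0605% of all genes did. At an unadjusted p under 0.05 in limma 2 of the 8 were lower, Boc and Ptch1. Among all genes 6.06% were lower and 4.54% higher at that level. Nothing is read from these counts, the median or the overlap given next. Scube2 was selected on its difference, and the others were chosen with earlier results of these data known. The groups did not overlap, with Delta9 lower, for 2 of the 9, Scube2 and Ptch1, and for 9.99% of all genes. Of the 12 probe sets not taken to represent a gene, 11 differed in the same direction and 1, of Boc, in the other, and none of the 12 passed in a limma fit of all 45037 non-control probe sets, where 0.0355% passed.

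**Figure D3:**
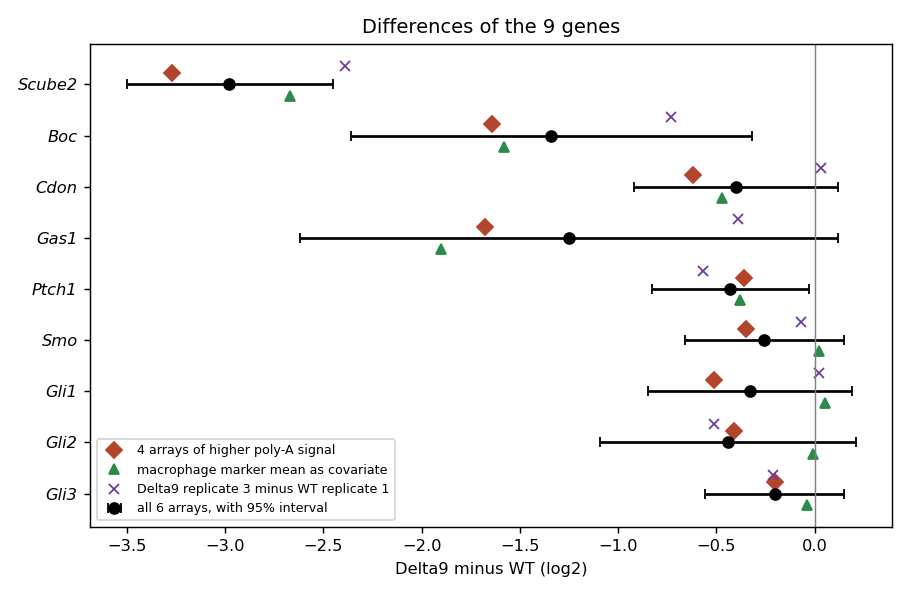
Delta9 minus WT (horizontal axis, log2) for each of the 9 genes. Black points with bars are the difference over 6 arrays and its 95% interval, diamonds the 4 arrays of higher poly-A signal, triangles the value with the macrophage marker mean as a covariate, and crosses Delta9 replicate 3 minus WT replicate 1. Scube2 stays between -3.27 and -2.39, and the crosses of Cdon and Gas1, at 0.03 and -0.39, lie to the right of their diamonds.

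Another 81 genes of the Hedgehog pathway, listed by role, were analysed. Of the 81, 49 averaged lower and 32 higher, with a median of -0.07, and 0 passed in limma over all genes (11 lower and 0 higher at an unadjusted p under 0.05). Among all genes 6.06% were lower and 4.54% higher at that unadjusted p. The groups did not overlap for 15 of the 81, or 18.5%, all lower in Delta9, against 9.99% lower and 7.27% higher among all genes.

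Ligand genes were dim in both groups. Shh read 2.95, 3.28 and 3.46 in Delta9 and 3.29, 3.41 and 3.35 in WT, Ihh had means of 2.82 in Delta9 and 2.88 in WT, and Dhh 4.09 in Delta9 and 4.19 in WT. The 8 genes of ligand making and release, Scube1 and Scube3 included, had a median difference of -0.09 (6 lower, 2 higher). Disp1, the transporter that releases ligand from the producing cell, differed by 0.02 (95% interval -0.52 to 0.56), and Disp2, its relative, by -0.28 (95% interval -0.58 to 0.02). Of the 8 further binding proteins 4 were lower and 4 higher, with a median of -0.04. The glypican Gpc6, a cell-surface heparan sulfate proteoglycan, read 8.28, 8.10 and 7.95 in Delta9 and 8.64, 8.45 and 8.73 in WT, without overlap, and differed by -0.50 (SE 0.15; limma, adjusted p 0.321). The endocytic receptor Lrp2 was dim and differed by -0.11.

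Between Smo and the Gli factors, 17 of 28 measured genes were lower and 11 higher, with a median of -0.05. Evc, a ciliary membrane protein that relays the signal from Smo, read 5.30, 5.30 and 5.48 in Delta9, against 5.93, 5.98 and 6.45 in WT. The groups did not overlap and the difference was -0.76 (SE 0.18; limma, adjusted p 0.245). Its partner Evc2 differed by -0.39 (SE 0.15), also without overlap, and the ubiquitin ligase scaffold Cul1 by -0.59 (SE 0.15). Of 23 genes of the primary cilium, 16 were lower and 7 higher, with a median of -0.10. The transport protein Ift88 read 4.37, 4.51 and 4.38 in Delta9 and 4.94, 4.81 and 5.17 in WT, a difference of -0.56 (SE 0.14; limma, adjusted p 0.279), and the ciliary motor subunit Dync2h1 differed by -0.52 (SE 0.16). Ift172, another transport protein, differed by -0.49 (SE 0.15), likewise with no overlap. Evc2 and Ift172 were named after their values were seen.

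The listed Gli targets had no common direction. Of 15 measured, 6 were lower and 9 higher, with a median of 0.02. Several were dim: Foxl1, Grem1 and Nkx2-2 differed by 0.08, 0.10 and 0.11, and Foxf2 by -0.11. Ptch1 and Gli1, also target genes, are among the 9 members and not in this list, and differed by -0.43 and -0.33. Hhip, a ligand-binding antagonist that is induced by the pathway, was dim, at 2.92, 2.67 and 2.93 in Delta9 and 2.78, 3.02 and 2.55 in WT. Bmp4, a growth factor gene with several other inputs, read 5.73, 5.80 and 6.30 in Delta9 and 8.0, 7.14 and 7.85 in WT. The groups were well apart, and its difference of -1.72 (SE 0.27) missed the threshold (limma, adjusted p 0.112) but passed with the poly-A split as a block (limma, adjusted p 0.0245). Mycn, the N-myc oncogene, differed by -0.32 (SE 0.12), without overlap.

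**Figure D4:**
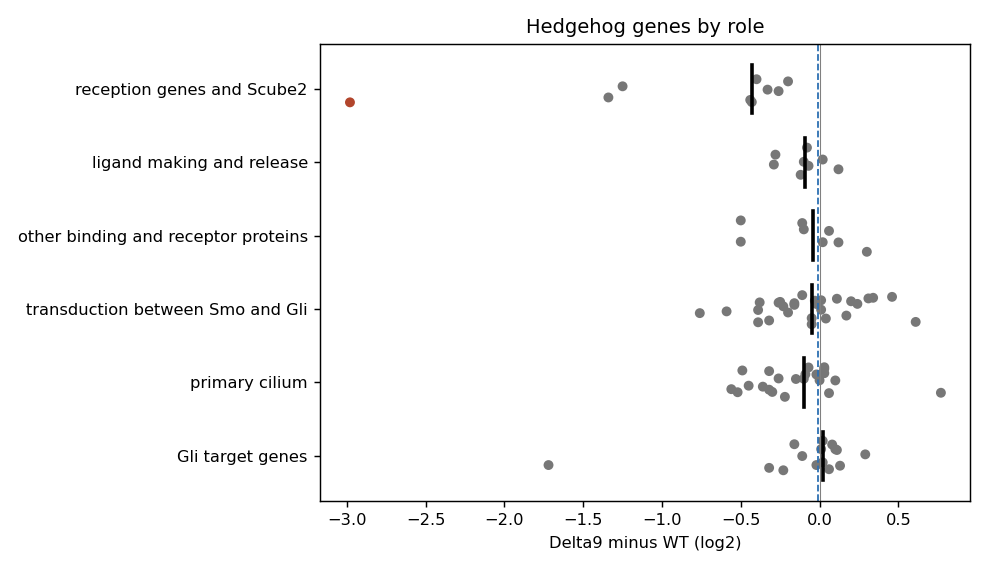
Delta9 minus WT (horizontal axis, log2) of the measured genes in each role (points, with random vertical spread), with the list's median as a black bar and the median of all genes, -0.01, as a dashed line; red marks Scube2, which was selected on this difference. The medians of the lists other than the 9 reception genes run from -0.10 for the primary cilium to 0.02 for Gli targets, and Bmp4, at -1.72, stands apart from the other targets.

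The genes whose profile over the 6 arrays, centred on its own mean, was closest to that of Scube2 were Igfbp2, which binds insulin-like growth factors (root mean square difference 0.22 log2), Cpxm2, a carboxypeptidase-like protein (0.28), Matn4, a matrilin of the matrix (0.32), Mkx, a transcription factor of tendon (0.33), and Fmod, a collagen-binding proteoglycan (0.47). Each of these 5 was separated between the groups, which follows from choosing genes by closeness to Scube2, itself selected on its difference. Igfbp2, for example, read 4.93, 5.17 and 4.78 in Delta9 and 7.79, 8.28 and 8.58 in WT. Closest to Boc were Fat4, an atypical cadherin (0.16), Meox2, a homeobox factor (0.20), Ahr, a ligand-activated transcription factor (0.20), Id4, which blocks helix-loop-helix factors (0.22), and Ogn, a small leucine-rich proteoglycan (0.23). Fat4 read 4.66, 4.86 and 6.42 in Delta9 and 7.03, 6.14 and 6.62 in WT. Delta9 replicate 3 exceeded WT replicate 2 for Fat4, as for Boc. For Meox2, Ahr, Id4 and Ogn the groups did not overlap, with Delta9 lower. That these profiles resemble that of Boc follows from the choice by profile. None of the 5 genes closest to Boc passed in limma (adjusted p 0.231 to 0.417).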

How the data were processed

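Total RNA of 6 samples, 3 Delta9 and 3 WT, was labelled with the Affymetrix One Cycle kit and hybridised to 1 array each, per the labels' protocols. The authors deposited 1 log2 value per probe set and array. How these were summarised and normalized is not given in the sources used here; base 2 was taken from their range. Of 45101 probe sets, 64 controls were left out, 34945 had 1 gene symbol in the platform annotation, 932 had several and 9160 are unnamed here; 34741 matched RefSeq (GRCm38.p6) by Entrez identifier. Each of 18193 genes was given the probe set of highest mean.

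Delta9 minus WT was fitted for every gene with limma 3.58.1 (R 4.3.3; lmFit, eBayes with a trend, no block, no filter, no pseudocount), and p-values were adjusted over all genes by the Benjamini-Hochberg method (threshold 0.05). Data were simulated with these genes' means and with their spreads as moderated by limma, not the raw ones, and 200 of 18193 genes changed. There the fit called 75.6% of those moved by 1 log2 unit and 98.4% of those moved by 2, and 5.35% of its calls were false. The simulated noise was independent between genes and arrays, so variation shared across genes, such as that of the poly-A split, was not part of it. These percentages may therefore not hold for the real arrays, where Lmna, at -1.96, did not pass (limma, adjusted p 0.0899). Having 3 arrays in each group limits the precision.

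The members, gene lists, motifs and alternatives were chosen with earlier results of these data known. By rule the genes named were the 9 members, Lmna, Hedgehog genes past the threshold, and up to 2 genes per Hedgehog list of largest difference without overlap. The rule also took the 5 genes closest in profile to Scube2 and to Boc. Scube1, Scube3, the ligands, Disp1, Hhip, Evc2, Ift172, the fibroblast markers and Itgam were added after their values were seen. So were Foxl1, Grem1, Nkx2-2, Foxf2, Kif3a and Arrb2. The chromosomal neighbours named were also outside the rule. Alternatives were quantile normalization, a filter on dim genes, averaging a gene's probe sets, probe sets other than _x_at and _s_at ones, no variance trend, the replicate block, the poly-A split as a block or its larger part alone, the macrophage covariate, each probe set on its own, and leaving out each sample. Promoter sequences came from RefSeq (GRCm38.p6). Figures were drawn with matplotlib 3.10.9.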

Additional observations from a re-analysis of the deposited data

How the results depend on the processing

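Scube2 averaged lower in Delta9 in all 15 alternatives, by -3.27 to -2.67 log2. The replicate block left it at -2.98, single samples left out gave -3.19 to -2.80, and the macrophage covariate, at -2.67, moved it by more than the SD within the groups (0.30); the cause was not tested. Boc, Cdon, Gas1, Ptch1, Gli2 and Gli3 kept their direction in all 15 alternatives that give 1 value per gene. Gli2 was at -0.01 (SE 0.25) and Gli3 at -0.04 (SE 0.16) with the macrophage covariate, which shows no direction for either. Gli1 had no value under the filter on dim genes. With each probe set on its own, 1427517_at of Boc went the other way (0.08). Smo and Gli1 were at 0.02 (SE 0.14) and 0.05 (SE 0.18) with the macrophage covariate. The sign changed, but these values show no direction either, and the cause was not tested. Boc ran from -1.82 without Delta9 replicate 3 to -0.71 with the mean of its probe sets, and Gas1 from -1.96 without Delta9 replicate 3 to -0.83 without Delta9 replicate 1. Of the 8 other members 0 passed over 6 arrays and 1, Gas1 (-1.68), within the 4 arrays of higher poly-A signal. Of the 81 other Hedgehog genes 0 passed, and 1, Bmp4, with that split as a block. Over all genes 11 passed: 0 did with the replicate block, 149 with the poly-A split as a block, 61 within its 4 arrays, 3 with the macrophage covariate, and 1 (without WT replicate 2) to 81 (without Delta9 replicate 3) with single samples left out. Same-numbered samples did not deviate together (correlations -0.40, 0.17 and -0.43). The highest correlation, 0.59, was between Delta9 replicate 3 and WT replicate 1, the arrays of low poly-A signal. With 3 arrays in each group this check cannot exclude a shared litter or day, which the labels do not state.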

Other observations

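Of the 18 protein-coding genes next to the 9 on their chromosomes in RefSeq (GRCm38.p6), 16 were measured and differed by -0.63 (Inhba, beside Gli3) to 0.51 (Rpusd4, beside Cdon). None of the 16 passed in limma (adjusted p 0.377 to 0.972). The neighbours of Scube2 on chromosome 7, Nrip3 and Dennd5a, differed by -0.12 (SE 0.15) and -0.07 (SE 0.11), and those of Gas1 on chromosome 13, Tut7 and Dapk1, by -0.08 (SE 0.13) and 0.30 (SE 0.23).

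Some pathway genes went the other way. Kif3a, a subunit of the kinesin that carries cargo into the cilium, had the highest difference of the 81 other Hedgehog genes: it read 6.95, 6.89 and 7.26 in Delta9 and 6.91, 6.39 and 5.47 in WT, or 0.77 (SE 0.35; limma, adjusted p 0.490). Arrb2, an arrestin that binds Smo, read 7.88, 7.56 and 8.32 in Delta9 and 8.31, 7.43 and 6.18 in WT, or 0.61 (SE 0.50; limma, adjusted p 0.701). Both were lowest in WT replicate 3, the array with the lowest mean of the macrophage markers (7.42). That array also had the largest Actb 3′ minus 5′ signal (1.41) and the lowest 18S rRNA signal (7.86). The part of these features in the values of Kif3a and Arrb2 was not tested. These genes were chosen after their values were seen.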
